A study of Mus musculus with 32 samples.

Results

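The genes described here are 39 genes that mark microglia and other macrophages, measured as RNA in primary mouse astrocyte cultures. They were chosen by symbol, and all 39 were found among the 21899 genes of the expression table, of which 15112 were above 0 in at least 1 library. The 32 libraries form 8 groups of 4. Cultures received LPS together with photobiomodulation (LPS+PBM), LPS alone (LPS), photobiomodulation alone (PBM) or neither (Control), and each of these was sampled at 4 h and at 24 h. LPS is lipopolysaccharide, a component of the outer membrane of Gram-negative bacteria that signals through the receptor TLR4 and its co-receptor CD14. Photobiomodulation is exposure to red or near-infrared light. The sources used here give neither its wavelength and dose nor the strain and age of the mice or any step taken to remove microglia from the cultures. The labels number the 4 libraries of a group without saying that they came from separate cultures, so the p-values measure only the spread between these libraries, which may be technical.

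Microglia are the resident macrophages of the brain. They depend on CSF1R, the receptor for the growth factors CSF1 and IL-34, and on the transcription factor PU.1, encoded by Spi1. Resting microglia are recognised by surface proteins such as P2RY12, TMEM119 and CX3CR1, and their TREM2 and Fc receptors signal through the adaptors TYROBP (DAP12) and the Fc receptor gamma chain (Fcer1g). They are also the main source of the complement protein C1q in the brain, and some of them usually remain in astrocyte cultures prepared from rodent brain. Because RNA of the whole culture was measured, fewer cells of a type and less RNA per cell cannot be told apart.

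Values are FPKM, a fragment count scaled by transcript length and library size, so levels can be compared between genes per length. The fragments behind each library were inferred from the spacing of low values at between 130768 and 143855 (median 137287), so that a single fragment over 1 kb came to between 6.95 and 7.65 FPKM. The 39 genes together rested on between 336 and 753 fragments per library. A gene listed at 0 in a library was therefore not detectable at this depth, which does not show that it was absent.

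The astrocyte label was checked against markers. Gfap, the intermediate filament of astrocytes, lay between 16.4 and 89.0 FPKM (median 35.5), and Aqp4 and Gja1 were also above 0 in all 32 libraries, but S100b was listed at 0 in 24 of them. The summed level of 16 astrocyte genes lay between 151 and 577 FPKM. That of 10 fibroblast and meningeal genes lay between 3357 and 5720 FPKM, and that of 12 endothelial and mural genes between 955 and 2155 FPKM. Most of the endothelial and mural sum came from Acta2 (median 958 FPKM) and Tagln (median 548 FPKM). Of its endothelial genes, Cldn5 was listed at 0 in all 32 libraries and Pecam1 in 29. Cdh5 and Flt1 were above 0 in all 32, with medians of 5.6 and 9.26 FPKM. Genes of the neuronal list summed to between 22.2 and 129 FPKM and those of the oligodendrocyte lineage to between 27.9 and 76.3 FPKM. Among 14 monocyte, neutrophil and lymphocyte genes only 3 were above 0 in any library, and Ccr2 and Ly6c2, markers of inflammatory monocytes, were listed at 0 in all 32. These lists differ in length and in the genes they hold, so the sums are not shares of cells.

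The 39 genes summed to between 1566 and 3127 FPKM per library (median 2405), which was between 0.376% and 0.755% of all FPKM. Lyz2, encoding lysozyme M, took between 42.9% and 64.0% of that sum and averaged 1330 FPKM over the libraries. A near-identical copy, Lyz1, lies beside it, so its value is uncertain to the extent that reads were split between them. The next highest means were those of the lysosomal protease Ctss (174 FPKM), the pore-forming protein Mpeg1 (92.5 FPKM), the NADPH oxidase subunit Cyba (80.6 FPKM) and the lysosomal glycoprotein Cd68 (74.5 FPKM). Fcer1g (70.2 FPKM), the C1q chain gene C1qb (58.1 FPKM) and the lysosomal membrane gene Laptm5 (53.8 FPKM) completed the first 8 places. From Ctss down, the range of each gene over the libraries overlapped that of its neighbours in this order.

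**Figure D1:**
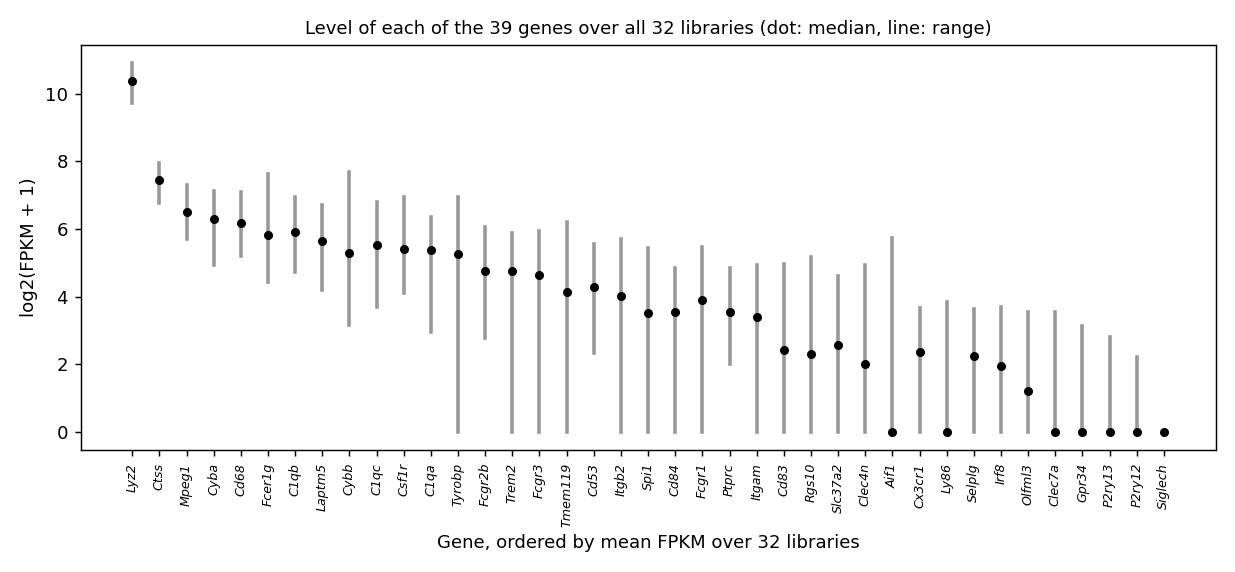
Level of each of the 39 genes over all 32 libraries, as log2(FPKM + 1) on the vertical axis, with genes ordered by mean FPKM on the horizontal axis. Dots are medians and lines run from the lowest to the highest library; Lyz2 stands above the other genes, and Siglech, at the right end, is at 0 in every library.

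The defining markers of microglia were present at uneven levels. Csf1r was above 0 in all 32 libraries, between 16.3 and 121 FPKM (median 41.3), and so was the leukocyte phosphatase Ptprc, between 3.02 and 28.0 FPKM (median 10.6). Tyrobp (median 37.1 FPKM), Spi1 (median 10.5 FPKM) and the integrin gene Itgam (median 9.52 FPKM) were each listed at 0 in 2 libraries, Trem2 (median 26.2 FPKM) in 3 and Tmem119 (median 16.4 FPKM) in 1. Cx3cr1, the fractalkine receptor, was low, with a median of 4.13 FPKM and 8 libraries at 0. Aif1, which encodes the microglial protein IBA1, was listed at 0 in all 16 libraries of 4 h and was above 0 in 8 of the 16 libraries of 24 h. P2ry12, the ADP receptor of resting microglia, was above 0 in only 4 libraries and never exceeded 3.61 FPKM. Its neighbour P2ry13 and the receptor genes Gpr34 and Clec7a were likewise at 0 in more than 24 of the 32 libraries, and the lectin gene Siglech was at 0 in all 32. In all, 15 of the 39 genes were above 0 in every library, 12 were at 0 in 1 to 8 libraries, 7 in 9 to 24, 4 in 25 to 31 and 1 in all 32. P2ry12 and P2ry13 lie inside Med12l and Gpr34 inside Cask, each on the opposite strand, so part of their few fragments could belong to those genes if the counting ignored strand, on which the sources used here say nothing.

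The summed level of the 39 genes did not separate any of the groups compared. At 24 h it averaged 2100 ± 339 FPKM in LPS+PBM cultures, 2560 ± 376 FPKM in LPS cultures, 2312 ± 370 FPKM in PBM cultures and 2680 ± 131 FPKM in Control cultures (SD, n = 4 each). At 4 h the means were 2513 ± 404 FPKM in LPS+PBM, 2069 ± 340 FPKM in LPS, 2313 ± 320 FPKM in PBM and 2706 ± 340 FPKM in Control cultures (SD, n = 4 each). The groups overlapped in each of the 8 comparisons, with and without Lyz2. The ratio of LPS to Control means was 0.955 at 24 h (0.894 to 1.00 with 1 library left out) and 0.764 at 4 h (0.728 to 0.826). That of LPS+PBM to PBM means was 0.908 at 24 h (0.840 to 0.975) and 1.09 at 4 h (1.01 to 1.15). Over the 10 defining markers alone the LPS to Control ratio was 0.779 at 24 h and 0.664 at 4 h, again with overlapping groups.

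**Figure D2:**
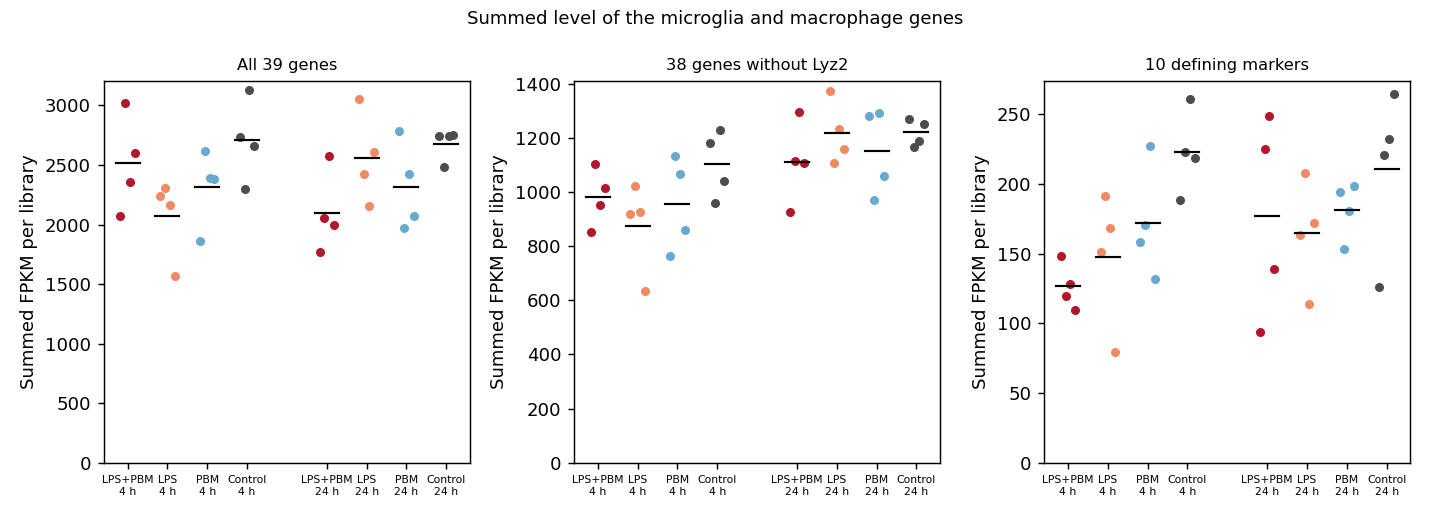
Summed FPKM per library, with time and treatment on the horizontal axis, for all 39 genes (left), without Lyz2 (middle) and for the 10 defining markers (right). Points are libraries and black bars group means; the libraries lie between 1566 and 3127 FPKM for all 39 genes, and the 2 groups of each LPS or light comparison overlap at both times.

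Single genes changed with LPS at 24 h in both directions. The oxidase gene Cybb and the adaptor gene Fcer1g rose with LPS both with and without light, and C1qc fell in both comparisons. Trem2, Cd68 and Rgs10 fell in LPS against Control cultures, and Tmem119 and C1qb fell in LPS+PBM against PBM cultures. Counts were read against all genes. In LPS against Control, 6 of the 38 genes tested passed an adjusted p of 0.05, 2 higher and 4 lower, beside 2.56% of all 13278 genes tested (1.62% higher and 0.941% lower). In LPS+PBM against PBM, 5 of 38 passed, 2 higher and 3 lower, beside 2.7% of all genes (1.81% higher and 0.896% lower). The median log2 difference over all 39 genes was -0.30 in LPS against Control and -0.17 in LPS+PBM against PBM, while the medians over all genes tested were -0.05 and -0.08. The astrocyte list also stood lower with LPS at this time, summing to 192 ± 34.3 FPKM in LPS+PBM and 231 ± 38.7 FPKM in LPS cultures, against 320 ± 46.0 FPKM in PBM and 452 ± 87.1 FPKM in Control cultures (SD, n = 4 each). The fibroblast and meningeal sum was 4200 ± 277 FPKM in LPS+PBM and 4482 ± 285 FPKM in LPS, against 5418 ± 217 FPKM in PBM and 4891 ± 174 FPKM in Control cultures (SD, n = 4 each). Its genes did not all move alike. With LPS averaged over light Dcn rose by 1.53 ± 0.11 (SE; limma, adjusted p = 1.2e-08), while Fn1, Ogn, Col1a1, Col1a2 and Igfbp2 passed as lower. The endothelial and mural sum was 1145 ± 142 FPKM in LPS+PBM and 1116 ± 18.2 FPKM in LPS, against 1615 ± 176 FPKM in PBM and 1680 ± 46.8 FPKM in Control cultures (SD, n = 4 each), and no LPS-treated library, at most 1292 FPKM, reached the lowest without LPS, 1442 FPKM. Most of that sum is Acta2 and Tagln, which fell by 0.633 ± 0.073 and 0.485 ± 0.082 with LPS averaged over light (SE; limma, adjusted p = 9.4e-06 and 0.000806). It is therefore not a reading of endothelial cells. The part of these shifts in the results on the 39 genes was not tested.

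Cybb encodes the catalytic subunit of the phagocyte NADPH oxidase, which makes superoxide, and Cyba encodes its membrane partner. In LPS cultures of 24 h Cybb stood at 115, 92.6, 204 and 85.9 FPKM, and in Control cultures at 17.6, 25.0, 27.4 and 19.3 FPKM. In LPS+PBM cultures it stood at 92.9, 70.3, 88.2 and 180 FPKM, and in PBM cultures at 29.4, 18.4, 24.9 and 25.0 FPKM. Every LPS-treated library was thus above every library without LPS at this time. The log2(FPKM + 1) difference was 2.36 ± 0.31 for LPS minus Control (SE; limma, adjusted p = 0.000125) and 2.02 ± 0.31 for LPS+PBM minus PBM (limma, adjusted p = 0.000651). Cyba averaged 107 ± 36.8 FPKM in LPS and 67.9 ± 14.6 FPKM in Control cultures, and 86.5 ± 18.8 FPKM in LPS+PBM and 101 ± 33.9 FPKM in PBM cultures (SD, n = 4 each), and passed the threshold in neither comparison. Cytosolic partners of the enzyme, read from a list of other macrophage genes, stood higher too when LPS was averaged over light at 24 h: Rac2 by 2.78 ± 0.53, Ncf4 by 1.92 ± 0.44 and Ncf1 by 1.63 ± 0.32 on the log2 scale (limma, adjusted p = 0.00225, 0.0107 and 0.00281).

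Fcer1g, the signalling chain shared by several Fc and lectin receptors, stood at 135, 107, 87.2 and 141 FPKM in LPS cultures of 24 h and at 56.2, 51.9, 44.5 and 45.4 FPKM in Control cultures. In LPS+PBM cultures it stood at 101, 103, 197 and 96.9 FPKM, against 31.1, 32.5, 21.7 and 31.1 FPKM in PBM cultures. Neither pair of groups overlapped. The log2 difference was 1.21 ± 0.25 for LPS minus Control (SE; limma, adjusted p = 0.00888) and 2.01 ± 0.25 for LPS+PBM minus PBM (limma, adjusted p = 4.1e-05). The call without light was lost with limma-voom on approximate fragments (adjusted p = 0.0931) and without the 6 libraries that stand last in the table (limma, adjusted p = 0.148), while the call with light held in 16 of 16 alternatives. Clec4n, encoding the receptor Dectin-2 that signals through this chain, stood at 18.5, 12.7, 19.4 and 18.7 FPKM in LPS cultures and at 6.22 FPKM in 1 of 4 Control libraries, with the other three at 0. It passed the threshold once LPS was averaged over light (log2 difference 3.03 ± 0.70, SE; limma, adjusted p = 0.0108), although its values rest on 11 fragments in LPS and 1 in Control cultures. That call was lost in 1 of 23 alternatives, without the 6 last libraries (limma, adjusted p = 0.121). The other adaptor, Tyrobp, averaged 32.1 ± 17.0 FPKM in LPS and 59.3 ± 46.3 FPKM in Control cultures (SD, n = 4 each) and did not pass.

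Trem2, the lipid-sensing receptor that pairs with TYROBP, had the lowest log2 difference of the 39 genes in LPS against Control. In LPS cultures of 24 h it was above 0 in a single library, at 6.64 FPKM, and in Control cultures it stood at 35.9, 26.1, 49.7 and 14.1 FPKM. In LPS+PBM cultures it stood at 7.13, 6.59, 6.61 and 6.87 FPKM, about 1 fragment in each, against 32.1, 27.6, 13.5 and 57.7 FPKM in PBM cultures. Both pairs of groups were separate. The log2 difference was -4.15 ± 0.64 for LPS minus Control (SE; limma, adjusted p = 0.000549), while that for LPS+PBM minus PBM, -1.94 ± 0.64, did not pass (limma, adjusted p = 0.136). The 2 differences were not shown to differ, since the interaction of LPS and light was 2.21 ± 0.90 (SE; limma, adjusted p = 0.903). Averaged over light, Trem2 fell by 3.05 on the log2 scale (SE 0.45; limma, adjusted p = 0.000185), and this rests on 4 fragments in the LPS+PBM group and 1 in the LPS group, against 20 in PBM and 18 in Control.

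Of the 3 chains of C1q, the recognition molecule of the classical complement pathway, C1qc passed in both LPS comparisons of 24 h, C1qb in one and C1qa in neither. C1qc stood at 23.3, 12.0, 36.6 and 12.1 FPKM in LPS and at 81.9, 81.3, 43.6 and 50.9 FPKM in Control cultures of 24 h, and at 25.0, 28.9, 46.4 and 24.1 FPKM in LPS+PBM against 110, 72.7, 85.3 and 75.4 FPKM in PBM cultures. It fell by 1.67 on the log2 scale without light (SE 0.35; limma, adjusted p = 0.0104) and by 1.47 with light (SE 0.35; limma, adjusted p = 0.0234). The call with light was lost with any of LPS+PBM libraries 1, 2 and 4 or PBM libraries 1 and 3 left out (limma, adjusted p up to 0.0866), and that without light in 2 of 16 alternatives (adjusted p up to 0.255). C1qb fell in LPS+PBM against PBM, where it stood at 27.7, 32.0, 25.7 and 40.0 FPKM against 122, 73.7, 47.1 and 83.4 FPKM (log2 difference -1.29 ± 0.31, SE; limma, adjusted p = 0.0234). The call was lost in 8 of 16 alternatives (limma or limma-voom, adjusted p up to 0.170), among them limma-voom on approximate fragments and leaving out the 6 last libraries. Single omissions that lost it were LPS+PBM libraries 1 to 3 and PBM libraries 1, 2 and 4 (limma, adjusted p up to 0.0962). In LPS cultures C1qb averaged 68.0 ± 6.25 FPKM and in Control cultures 71.3 ± 24.8 FPKM (SD, n = 4 each). The interaction for C1qb was -1.31 ± 0.43 (SE; limma, adjusted p = 0.664), so this contrast between the comparisons did not pass its own test. C1qa had means of 47.2 ± 27.2 FPKM in LPS and 57.5 ± 22.2 FPKM in Control cultures (SD, n = 4 each). The lysosomal marker Cd68 fell by 1.04 on the log2 scale in LPS against Control (SE 0.26; limma, adjusted p = 0.0340), with 45.6, 41.1, 53.7 and 65.2 FPKM against 136, 73.9, 122 and 99.5 FPKM. This call was lost in 9 of 16 alternatives (limma or limma-voom, adjusted p up to 0.156). Among them were limma-voom on approximate fragments, the fit of the compared groups alone and leaving out the 6 last libraries. Single omissions that lost it were LPS libraries 1 to 3 and Control libraries 1, 3 and 4 (limma, adjusted p up to 0.119). The average over light, a fall of 0.88, kept its call in 23 of 23 alternatives.

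Among the surface genes of resting microglia, Tmem119 stood at 6.71, 18.6, 18.7 and 3.24 FPKM in LPS+PBM and at 43.7, 35.8, 42.5 and 40.5 FPKM in PBM cultures of 24 h (log2 difference -1.97 ± 0.44, SE; limma, adjusted p = 0.0152). The call was lost in 3 of 16 alternatives (limma, adjusted p up to 0.13). These were the fit of the compared groups alone, leaving out the 6 last libraries, and leaving out LPS+PBM library 1. Without that library the difference was -1.53 (limma, adjusted p = 0.0536). Tmem119 averaged 12.9 ± 2.64 FPKM in LPS and 25.7 ± 8.46 FPKM in Control cultures (SD, n = 4 each). When LPS was averaged over light it fell by 1.44 (SE 0.31; limma, adjusted p = 0.00642). This second call was lost only without the 6 last libraries (limma, adjusted p = 0.053). Spi1 was higher in the same average by 1.48 ± 0.43 (SE; limma, adjusted p = 0.0490), with 25.9, 22.2, 38.9 and 13.3 FPKM in LPS+PBM, 17.2, 35.4, 10.8 and 7.17 FPKM in LPS, 10.3, 3.58, 3.60 and 10.3 FPKM in PBM and 3.73, 3.44, 22.1 and 3.76 FPKM in Control cultures. The LPS and Control values of Spi1 overlapped, and its call was lost in 16 of 23 alternative analyses, among them those without any of LPS+PBM and LPS libraries 1 to 3, PBM libraries 2 and 3 or Control libraries 1, 2 and 4 (limma, adjusted p up to 0.110). Rgs10, a regulator of G protein signalling, was listed at 0 in all 4 LPS libraries, against 17.2, 7.94, 8.52 and 34.8 FPKM in Control cultures (limma, adjusted p = 0.0451), on 8 fragments in the Control group, and its call was lost with any 1 of the 8 libraries left out (limma, adjusted p up to 0.132). The averages over light passed for 8 of 38 genes, 4 higher and 4 lower, beside 5.7% of all genes (3.1% higher and 2.61% lower). Their values for Cybb, Fcer1g and Trem2 reuse the libraries of the comparisons above. Csf1r averaged 53.5 ± 22.6 FPKM in LPS and 51.5 ± 25.4 FPKM in Control cultures (SD, n = 4 each), and Lyz2 1342 ± 315 FPKM and 1460 ± 102 FPKM, and neither passed.

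**Figure D3:**
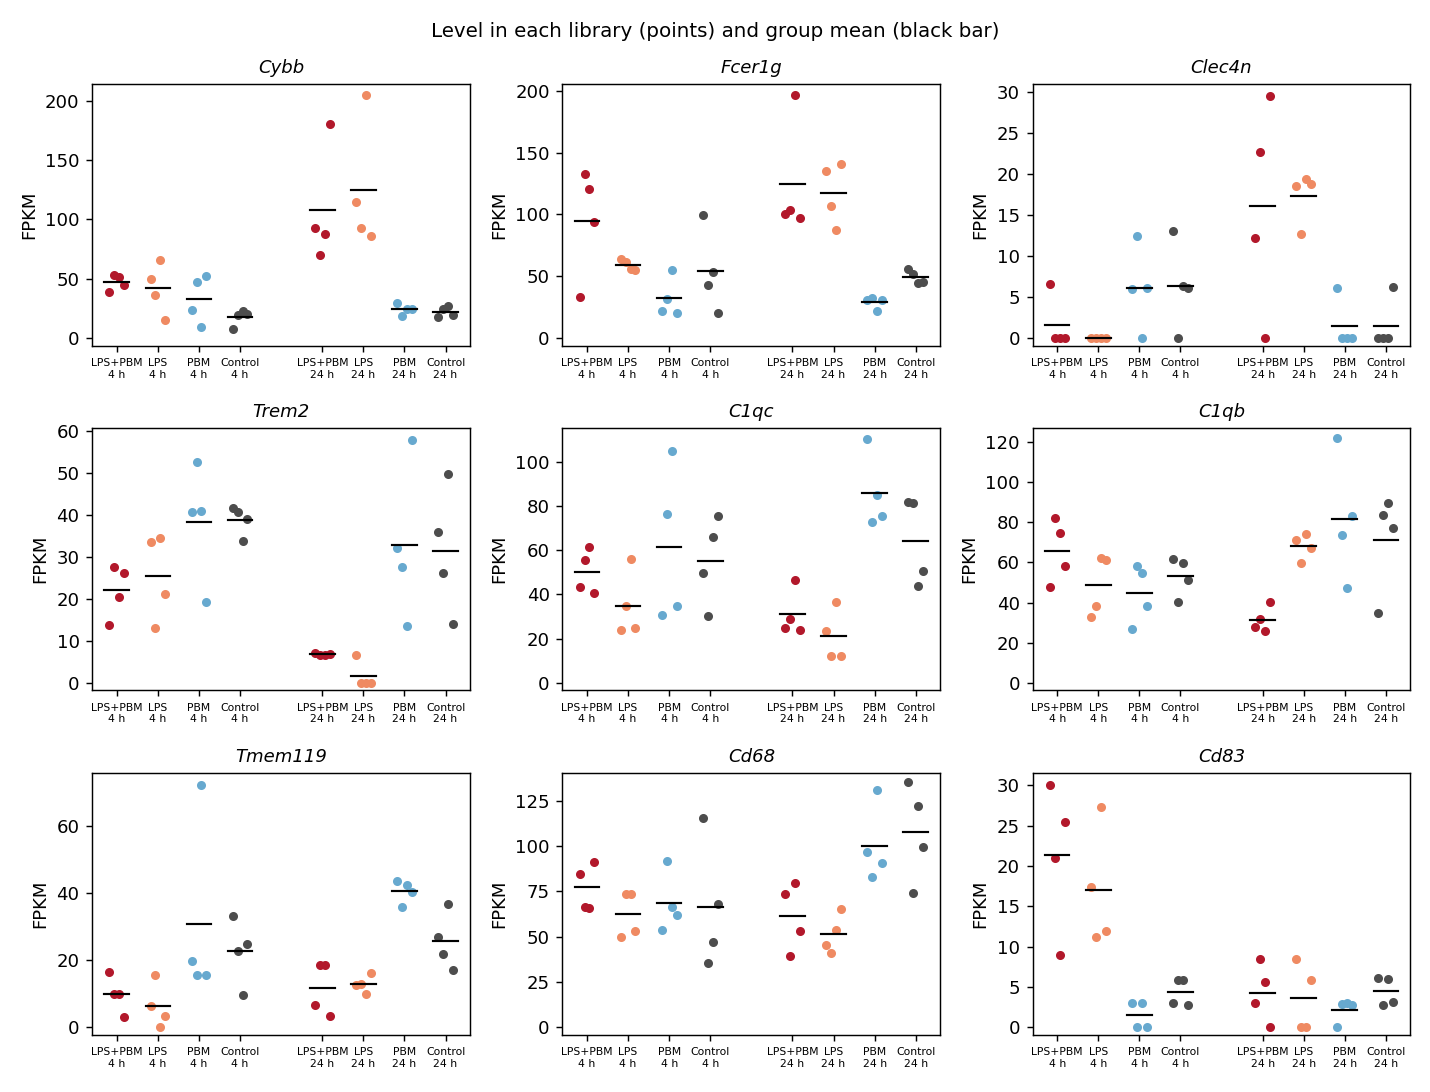
FPKM of 9 of the genes in each library (points, coloured by treatment) with group means (black bars), for LPS+PBM, LPS, PBM and Control cultures at 4 h and 24 h. At 24 h Cybb and Fcer1g lie higher in both LPS-treated groups, Trem2 and C1qc lie lower, and Cd83 is high with LPS at 4 h.

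Promoter sequences are shown for 5 of the genes with these changes, picked because Cybb and Fcer1g moved one way and Trem2, C1qb and C1qc the other. Cd68 and Tmem119, which also fell, are not shown. Each is the 250 bases before the annotated start of the gene in RefSeq on GRCm38.p6, written 5′ to 3′ along the strand of the gene. Capitals mark the letters GAGGAA or their reverse complement TTCCTC, taken here as the core of the site that PU.1 binds.
Cybb (chrX:9469325-9469574, minus strand): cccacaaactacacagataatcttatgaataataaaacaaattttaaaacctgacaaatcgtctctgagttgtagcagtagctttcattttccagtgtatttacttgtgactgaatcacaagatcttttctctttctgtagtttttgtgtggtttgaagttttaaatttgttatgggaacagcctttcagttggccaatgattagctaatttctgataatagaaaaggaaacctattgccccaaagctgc
Fcer1g (chr1:171234350-171234599, minus strand): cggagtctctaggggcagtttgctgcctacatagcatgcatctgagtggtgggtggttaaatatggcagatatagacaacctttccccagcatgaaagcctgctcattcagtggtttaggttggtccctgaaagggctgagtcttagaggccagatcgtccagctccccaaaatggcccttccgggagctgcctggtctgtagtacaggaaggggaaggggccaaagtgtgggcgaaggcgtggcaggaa
Trem2 (chr17:48346151-48346400, plus strand): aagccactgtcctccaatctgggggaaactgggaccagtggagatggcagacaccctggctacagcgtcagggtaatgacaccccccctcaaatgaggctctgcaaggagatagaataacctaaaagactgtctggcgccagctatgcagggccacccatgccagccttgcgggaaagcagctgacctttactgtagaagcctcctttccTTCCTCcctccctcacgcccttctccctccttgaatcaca
C1qb (chr4:136886201-136886450, minus strand): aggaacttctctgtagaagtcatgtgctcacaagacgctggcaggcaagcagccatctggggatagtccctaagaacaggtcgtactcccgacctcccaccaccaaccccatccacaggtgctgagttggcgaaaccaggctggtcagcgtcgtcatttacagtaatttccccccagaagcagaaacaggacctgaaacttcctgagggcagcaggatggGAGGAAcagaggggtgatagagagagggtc
C1qc (chr4:136892915-136893164, minus strand): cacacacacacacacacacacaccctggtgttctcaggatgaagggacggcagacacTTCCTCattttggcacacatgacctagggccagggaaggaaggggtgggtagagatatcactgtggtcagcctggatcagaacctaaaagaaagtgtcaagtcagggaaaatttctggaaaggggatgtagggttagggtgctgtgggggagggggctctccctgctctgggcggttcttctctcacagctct
The letters occur once each in the windows of Trem2, C1qb and C1qc and not in those of Cybb and Fcer1g. The shorter run GGAA within them does occur in the windows of Cybb and Fcer1g. Because the 5 windows were picked by direction of change, they do not relate the letters to that direction, which was not tested. Of the 39 genes 29 had a window, and 15 of these (51.7%) held the letters on either strand, beside 25.9% of 27025 genes with a window of the same length. The AP-1 letters TGACTCA or TGAGTCA were in 10.3% of the members' windows and in 5.2% of all. A match describes these letters only, and their absence from a window says nothing of binding elsewhere.

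At 4 h fewer of the genes passed the adjusted threshold with LPS. The dendritic cell and lymphocyte activation gene Cd83 rose with LPS, while Slc37a2, a transporter of glucose 6-phosphate in macrophages, and the Fc receptor gene Fcgr3 fell. In LPS against Control 2 of the 35 genes tested passed, both lower, beside 2.23% of all 13247 genes (1.75% higher and 0.476% lower). In LPS+PBM against PBM 1 of 35 passed, beside 2.63% of all genes (1.8% higher and 0.83% lower). At an unadjusted limma p under 0.05, LPS against Control had 3 of the 35 genes higher and 13 lower at 4 h, beside 12.1% of all genes in either direction, and 3 of 38 higher and 4 lower at 24 h, beside 13.3%. LPS+PBM against PBM had 3 higher and 1 lower at 4 h, beside 14.2%, and 5 higher and 8 lower at 24 h, beside 12.7%. The median log2 difference over all 39 genes was -0.43 in LPS against Control and -0.02 in LPS+PBM against PBM, beside -0.07 and -0.16 over all genes tested.

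Cd83 stood at 30.1, 21.1, 8.95 and 25.5 FPKM in LPS+PBM cultures of 4 h, against 2.97 and 3.00 FPKM in 2 PBM libraries and 0 in the other two (log2 difference 3.37 ± 0.60, SE; limma, adjusted p = 0.00259). In LPS cultures it stood at 17.4, 11.2, 27.3 and 12.0 FPKM, against 3.01, 5.88, 5.84 and 2.82 FPKM in Control cultures, a log2 difference of 1.71 ± 0.60 that did not pass over all genes (limma, adjusted p = 0.199). No LPS-treated library overlapped a library without LPS. At 24 h Cd83 was back to 4.28 ± 3.60 FPKM in LPS+PBM and 3.60 ± 4.29 FPKM in LPS cultures (SD, n = 4 each).

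Slc37a2 was above 0 in a single LPS library of 4 h, at 1.25 FPKM, against 5.07, 18.1, 15.1 and 14.6 FPKM in Control cultures (log2 difference -3.42 ± 0.66, SE; limma, adjusted p = 0.00479). In LPS+PBM cultures it stood at 5.06, 3.76, 1.24 and 4.77 FPKM, and in PBM cultures at 15.2, 2.48, 2.67 and 7.27 FPKM, which overlapped. Fcgr3 stood at 10.8 and 5.25 FPKM in 2 LPS libraries and at 0 in the other two, against 28.0, 54.0, 37.6 and 20.7 FPKM in Control cultures (log2 difference -3.54 ± 0.91, SE; limma, adjusted p = 0.0462). Fcgr3 shares long stretches with its neighbour Fcgr2b, so reads could be split between them, and its call was lost without any of LPS libraries 3 and 4 or the 4 Control libraries (limma, adjusted p up to 0.153). Fcgr1, the high-affinity receptor for IgG, had the highest log2 difference of the genes tested in LPS against Control at 4 h and narrowly missed the threshold. It stood at 22.1, 20.8, 14.5 and 18.1 FPKM in LPS libraries, against 2.88 and 2.70 FPKM in 2 Control libraries and 0 in the other two, without overlap (log2 difference 3.34 ± 0.89, SE; limma, adjusted p = 0.0582). It passed with quantile normalization, with a replicate block, with limma-voom on approximate fragments and with only the compared groups in the fit. In LPS+PBM cultures it averaged 8.36 ± 5.93 FPKM, against 7.00 ± 8.30 FPKM in PBM cultures (SD, n = 4 each). Averaged over light, Cx3cr1 also fell, by 1.94 (SE 0.48; limma, adjusted p = 0.0216), with group means of 1.08 ± 1.26 FPKM in LPS+PBM, 1.18 ± 1.36 FPKM in LPS, 5.91 ± 1.60 FPKM in PBM and 6.90 ± 3.79 FPKM in Control cultures (SD, n = 4 each). These means rest on 2, 2, 10 and 12 fragments, and the gene overlaps several others in the annotation. Without Control library 3 the difference was -1.80 (limma, adjusted p = 0.0516). In the LPS effect averaged over light, 4 of 35 genes passed, 1 higher and 3 lower, beside 4.98% of all genes (3.24% higher and 1.74% lower).

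**Figure D4:**
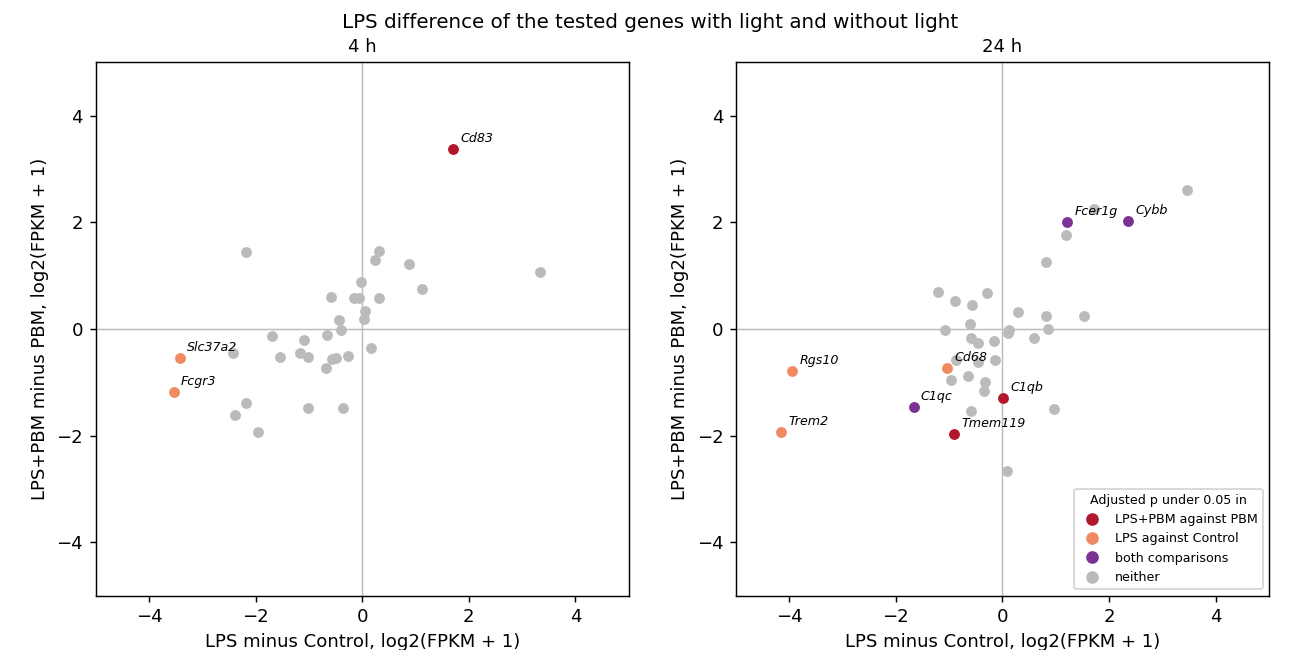
Difference in mean log2(FPKM + 1) for LPS+PBM minus PBM (vertical) against LPS minus Control (horizontal) at 4 h (left) and 24 h (right), with 1 point per gene tested and colours for genes with an adjusted p under 0.05. Cybb and Fcer1g lie at the upper right and C1qc at the lower left at 24 h, past the threshold in both comparisons.

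The 2 LPS comparisons at one time share no library. At 24 h, 9 of the 39 genes were above 0 in both differences, 17 below 0 in both, 11 opposite and 2 at exactly 0 in one or both. At 4 h the counts were 9 above, 19 below, 8 opposite and 3 with a 0. The difference between times was tested in LPS minus Control: the LPS effect on Trem2 was 3.47 lower at 24 h than at 4 h on the log2 scale (log2 difference -3.47 ± 0.73, SE; limma, adjusted p = 0.0132). Clec4n also passed (limma, adjusted p = 0.0371), and it was listed at 0 in all 4 LPS libraries of 4 h. These were 2 of 38 genes, beside 0.617% of all 13937 genes tested. The Trem2 result was lost in 3 of 24 alternatives (limma, adjusted p up to 0.377). That of Clec4n was lost in 16 of 24, and without any of 14 of the 16 libraries (limma, adjusted p up to 0.111), all but Control library 2 of 4 h and Control library 4 of 24 h.

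Within LPS cultures, 24 h against 4 h, 5 of 38 genes passed, 4 higher and 1 lower, beside 1.33% of all genes (0.531% higher and 0.804% lower). Trem2 fell by 3.90 (SE 0.52; limma, adjusted p = 1.1e-05), with the values of 24 h given above against 33.5, 13.0, 34.5 and 21.0 FPKM at 4 h. The cell surface receptor gene Cd84 averaged 15.0 ± 5.37 FPKM at 24 h and 3.62 ± 4.49 FPKM at 4 h, and Fcgr3 31.1 ± 10.4 FPKM and 4.02 ± 5.17 FPKM (SD, n = 4 each; limma, adjusted p = 0.0329 and 0.0404). Cybb averaged 125 ± 54.7 FPKM at 24 h and 41.9 ± 21.3 FPKM at 4 h (SD, n = 4 each; limma, adjusted p = 0.0486), and Clec4n passed as well (limma, adjusted p = 0.0200). Except for Trem2, these calls were lost in single omissions and in other alternatives. Of 16 alternatives, 6 lost the call of Cd84, 7 that of Fcgr3, 13 that of Cybb and 6 that of Clec4n. Cd84 lost its call without any of libraries 3 and 4 of 4 h or 1 and 2 of 24 h, and Fcgr3 without 3 and 4 of 4 h or 1, 3 and 4 of 24 h (limma, adjusted p up to 0.148 and 0.155). Cybb lost it without any library but 3 of 4 h, and Clec4n without 2 and 3 of 4 h or 1, 3 and 4 of 24 h (limma, adjusted p up to 0.205 and 0.0540). In LPS+PBM cultures only Lyz2 passed, falling by 0.63 (SE 0.16; limma, adjusted p = 0.0264), with 846, 942, 1279 and 894 FPKM at 24 h against 1217, 1918, 1410 and 1584 FPKM at 4 h, beside 3.01% of all genes. The 2 sets overlapped, since 1279 FPKM at 24 h exceeded 1217 FPKM at 4 h, and the call was lost without any of libraries 2 and 4 of 4 h or 1, 2 and 4 of 24 h (limma, adjusted p up to 0.125). Leaving out the 6 last libraries also lost it (limma, adjusted p = 0.318). No gene passed in PBM cultures (beside 1.05% of all genes) or in Control cultures (beside 1.11%). There, by limma, 1 and 3 genes had an unadjusted p under 0.05, beside 9.44% and 9.66% of all genes. The smallest p were those of C1qb (log2 difference 0.84 ± 0.30, adjusted p = 0.273) and Fcgr1 (1.55 ± 0.76, adjusted p = 0.534) in PBM cultures, and of Fcgr1 (2.67 ± 0.76, adjusted p = 0.0951) and Cd68 (0.79 ± 0.28, adjusted p = 0.262) in Control cultures.

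Light gave no call among the 39 genes. At 24 h LPS+PBM against LPS passed for none of 38 genes, beside 0.00753% of all genes, and PBM against Control for none, beside 0.113%. At 4 h the same 2 comparisons passed for none of 35 genes, beside 0% and 0.0453% of all genes. At an unadjusted limma p under 0.05 there were 5 of 38 genes in LPS+PBM against LPS at 24 h, beside 5.14% of all genes. In PBM against Control there were 2 of 38, beside 5.95%. At 4 h there were 3 of 35 in each, beside 7.53% and 5.28% of all genes. The other tool run, limma-voom on approximate fragments, called none of them either. In LPS+PBM against LPS at 24 h the smallest p were those of C1qb (log2 difference -1.11 ± 0.31, SE; limma, adjusted p = 0.822) and Trem2 (2.23 ± 0.64, SE; limma, adjusted p = 0.822). In PBM against Control at 24 h they were those of Fcer1g (-0.76 ± 0.25, SE; limma, adjusted p = 0.597) and Lyz2 (-0.35 ± 0.16, SE; limma, adjusted p = 0.834). At 4 h Slc37a2 (1.84 ± 0.66) and Lyz2 (0.35 ± 0.14) led in LPS+PBM against LPS (SE; limma, adjusted p = 0.509 and 0.569), and Ly86 (-3.11 ± 0.87) and Cd83 (-1.38 ± 0.60) in PBM against Control (SE; limma, adjusted p = 0.751 and 0.889).

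Light averaged over LPS, and the interaction of the 2, also passed for no gene at either time. The background for light averaged was 0.0452% at 24 h and 0.0151% at 4 h, and for the interaction 0.0527% and 0.0302%. For light averaged at 24 h, Lyz2 (-0.39 ± 0.12) and Cx3cr1 (-1.49 ± 0.53) had the smallest p (SE; limma, adjusted p = 0.678 and 0.874), and at 4 h Irf8 (1.22 ± 0.54) and Ly86 (-1.30 ± 0.62; limma, adjusted p = 0.854 and 0.877). For the interaction at 24 h they were C1qb and Fcgr3 (-2.74 ± 1.00; limma, adjusted p = 0.791), and at 4 h Slc37a2 (2.87 ± 0.93) and Ly86 (3.62 ± 1.24; SE; limma, adjusted p = 0.538 and 0.569). Unadjusted limma p under 0.05 was reached by 5 genes for light averaged and 5 for the interaction at 24 h, beside 5.1% and 5.29% of all genes. At 4 h it was reached by 2 and 3, beside 5.68% and 6.45%. A p that misses the threshold does not show that light left these genes unaltered, and the log2 differences of LPS+PBM against LPS ranged from -2.18 to 2.23 at 24 h.

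Genes around the 39 were read from further lists. Counts for LPS averaged over light stand beside 3.1% of all genes higher and 2.61% lower at 24 h, and 3.24% higher and 1.74% lower at 4 h. Csf1, the growth factor that binds CSF1R, stood at 564, 648, 579 and 672 FPKM in LPS+PBM and 613, 540, 516 and 573 FPKM in LPS cultures of 24 h, against 155, 183, 239 and 162 FPKM in PBM and 146, 221, 185 and 171 FPKM in Control cultures. It rose by 1.64 ± 0.15 in LPS against Control and by 1.75 ± 0.15 in LPS+PBM against PBM (SE; limma, adjusted p = 7.7e-07 and 2.6e-07). Of 15 growth factor and receptor genes tested, 5 were higher and none lower when LPS was averaged over light at 24 h, the others being the CX3CR1 ligand Cx3cl1, Csf3, Runx1 and Tgfb1. At 4 h 4 were higher, Csf1, Csf2, Csf3 and Cx3cl1, and Mef2c was lower. Among 17 tested signalling partners of DAP12 and the Fc receptor chain, the adaptor gene Lcp2 (3.18 ± 0.49) and the kinase gene Syk (1.38 ± 0.31) were higher at 24 h (SE; limma, adjusted p = 0.000296 and 0.00905), and at 4 h Lyn alone of 18.

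Of 35 other microglia and macrophage genes tested, 15 were higher and 2 lower at 24 h in the same average (3.1% and 2.61% of all genes), and 4 higher and none lower of 34 at 4 h (3.24% and 1.74% of all genes). Ccl9, a chemokine, stood at 80.1, 88.0, 85.9 and 70.0 FPKM in LPS+PBM and 56.0, 84.0, 78.2 and 82.5 FPKM in LPS cultures of 24 h, while no library without LPS exceeded 10.2 FPKM. C5ar1, the receptor of complement C5a, was at 0 in all 4 Control libraries and stood at 65.5, 35.8, 30.8 and 50.1 FPKM in LPS cultures. Cd14 averaged 132 ± 40.5 FPKM in LPS and 6.66 ± 7.70 FPKM in Control cultures, and Tlr2 60.4 ± 17.3 FPKM and 6.22 ± 6.42 FPKM (SD, n = 4 each). Cst3, the gene of the protease inhibitor cystatin C, was lower (-0.50 ± 0.13, SE; limma, adjusted p = 0.0295). Tlr2, Cd14 and Csf1 can also be made by astrocytes or endothelium, so their values do not count macrophage RNA alone. In the same average 4 astrocyte genes fell, Glul (-1.08 ± 0.16), Gfap (-1.07 ± 0.21), Fgfr3 (-2.23 ± 0.51) and Slc4a4 (-1.66 ± 0.38; SE; limma, adjusted p = 0.000213, 0.00350, 0.0103 and 0.0109), and none of 15 tested rose.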

How the data were processed

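Total RNA for the 32 libraries was reverse transcribed from an oligo-dT primer with template switching, amplified by PCR and sequenced on an Illumina NovaSeq, per the labels' protocols. The authors deposited FPKM values per gene, made against mm10, and the submitters' processing notes name RSEM, StringTie 1.3.1, HISAT2, Bowtie2 2.2.8 and fastp 0.18.0. The sources used here do not say which tool gave the FPKM values, nor the annotation and the strand setting.

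From the deposited FPKM, log2(FPKM + 1) was tested with limma 3.58.1 in R 4.3.3 (empirical Bayes with trend and robust settings, two-sided), with the 16 libraries of a time in 1 fit, or all 32 for comparisons between times. Genes whose group mean reached 1 FPKM in any group of the fit were kept, Benjamini-Hochberg adjustment ran over all of them, and an adjusted p under 0.05 counted as passing. An added 1 FPKM is below the value of a single fragment over 1 kb (6.95 to 7.65 FPKM). The log2 differences of genes with libraries at 0 therefore depend on it and can be too large or too small. That of Trem2 in LPS against Control at 24 h, -4.15 here, ran from -6.64 to -2.89 over the alternatives. Depth was inferred from genes with a single transcript in GENCODE M21: 92.25% of 23614 low values were whole fragments within 0.05. Simulated data of LPS against Control at 4 h (12260 genes) had 50 genes changed at each fold. There 26% of changes of 2-fold, 90% of 4-fold and 100% of 8-fold were called, with 9 false calls. The rates were not worked out for the genes described here, many of which rest on few fragments. They therefore do not give the power for these genes.

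Every gene that passed, the 8 highest, the 10 defining markers, the 2 smallest p of a comparison without calls and the genes at 0 in more than 24 libraries are named, with up to 4 passing genes of each further list and comparison. Fcgr1 with LPS at 4 h and some further genes of those lists were named after their values were seen. The result of 1 gene of a further list is not reported here. The genes and lists were chosen with earlier results of these data known. The design had set a count test for the case of counts, which did not apply. Promoters are from RefSeq. Alternatives were another pseudocount, no filter, quantile normalization, library quality weights, limma-voom on approximate fragments, fits of the compared groups alone, a replicate block, each library left out, and leaving out the 6 libraries that stand last in the table, which was chosen after seeing the data.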

Additional observations from a re-analysis of the deposited data

Results flagged for a closer look

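Among 181 sets of 4 libraries examined, 15 held a library standing apart from the other 3, where chance gives about 1 in 20. Fcer1g had 197 FPKM in LPS+PBM library 3 of 24 h (others 96.9 to 103) and 21.7 FPKM in PBM library 3 of 24 h (others 31.1 to 32.5), and neither reaches the opposite group. Clec4n had 12.7 FPKM in LPS library 2 of 24 h (others 18.5 to 19.4). Spi1 had 22.1 FPKM in Control library 3 of 24 h (others 3.44 to 3.76), which is where it overlaps the LPS libraries. Csf1r had 46.9 FPKM in LPS+PBM library 3 (others 16.3 to 21.2) and 72.1 FPKM in LPS library 2 (others 17.2 to 23.3) of 4 h. Tmem119 had 72.3 FPKM in PBM library 3 of 4 h (others 15.5 to 19.7), the library in which Cyba had 110 FPKM (others 65.5 to 69.2).

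Cyba had 29.3 FPKM in Control library 2 of 4 h (others 77.8 to 84.4), Itgam 11.4 FPKM in Control library 1 of 4 h (others 6.23 to 6.43) and Mpeg1 70.0 FPKM in LPS library 4 of 4 h (others 86.6 to 87.7). Ptprc had 7.94 FPKM in PBM library 3 (others 5.94 to 6.20) and 14.8 FPKM in Control library 1 (others 9.76 to 10.6) of 24 h, and Cd84 27.6 FPKM in that Control library (others 14.7 to 16.5). The summed level of the 39 genes was 2484 FPKM in Control library 2 of 24 h (others 2741 to 2752).

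The LPS effect without light differed between 24 h and 4 h for Trem2 (-3.47 ± 0.73) and Clec4n (5.85 ± 1.39; SE; limma, adjusted p = 0.0132 and 0.0371). The second value depends on the added 1 FPKM, because Clec4n was listed at 0 in all 4 LPS libraries of 4 h.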

How the results depend on the processing

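No gene call reversed under any alternative, and the 10 comparisons without a call gained none outside the single omissions. Counts of genes passing moved by over 1.5 times as follows. With a pseudocount of 0.1, LPS against Control at 4 h gave 1, the LPS average at 4 h 2 and the difference of LPS effects 1. Without a filter, LPS against Control at 4 h gave 1. With limma-voom on approximate fragments, LPS against Control gave 3 at 24 h and 4 at 4 h, the LPS average at 4 h 8, LPS+PBM at 24 h against 4 h 2 and the difference of LPS effects 1. With only the compared groups in the fit, LPS at 24 h against 4 h gave 2 and the difference of LPS effects 1. Without the 6 last libraries, LPS against Control and LPS+PBM against PBM at 24 h gave 2 each, LPS at 24 h against 4 h 2, LPS+PBM at 24 h against 4 h 0 and the difference of LPS effects 0. With 1 library left out, the counts ran from 4 to 5 in LPS against Control at 24 h and 1 to 4 at 4 h, 2 to 5 and 1 to 2 in LPS+PBM against PBM, 7 to 9 and 3 to 7 in the LPS average, 2 to 5 for LPS and 0 to 2 for LPS+PBM between times, 0 to 1 for Control between times and 1 to 2 for the difference of LPS effects. Over the 10 defining markers the log2 ratio of summed levels was -0.44 in LPS+PBM against PBM and -0.22 in LPS+PBM against LPS at 4 h, and -0.36 in LPS against Control and 0.10 in LPS+PBM against LPS at 24 h. Same-numbered libraries did not deviate together (correlations from -0.03 to 0.03 over 48 pairs), and differently numbered ones gave a similar range (-0.036 to 0.033 over 144 pairs). With few fragments behind many genes, this check cannot show whether same-numbered libraries shared a culture or a day. With a replicate block the counts were 6 in LPS against Control and 5 in LPS+PBM against PBM at 24 h, and 3 and 1 at 4 h, and Spi1 and the change of Cybb between times in LPS lost their calls. Many genes rest on a few fragments per group, which limits what could be detected.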

Other observations

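Genes of the disease-associated microglial state, a set known from mouse models of neurodegeneration in which Trem2 is needed for its full form, were read at 24 h. Of 16 tested, 2 were higher and 6 lower when LPS was averaged over light, beside 3.1% of all genes higher and 2.61% lower; the difference between these counts was not tested. The lysosomal protease gene Ctsd stood at 1139, 1124, 1211 and 1058 FPKM in LPS+PBM and 1190, 1252, 1181 and 1272 FPKM in LPS cultures, against 1735, 1771, 1732 and 1617 FPKM in PBM and 1789, 1673, 1953 and 1596 FPKM in Control cultures. It fell by 0.56 (SE 0.05; limma, adjusted p = 3e-07). Gpnmb fell by 1.10 and the apolipoprotein gene Apoe by 0.96 (SE 0.15 each; limma, adjusted p = 8.8e-05 and 0.000312), and Ctsb, Lgals3 and Cd9 also fell. The ferritin gene Fth1 rose by 0.70 ± 0.08 and Spp1 by 0.37 ± 0.07 (SE; limma, adjusted p = 4.8e-06 and 0.00346). Astrocytes and fibroblasts express most of these genes, and the 16 summed to between 9444 and 12886 FPKM per library, above the sum of the 39 genes.

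Among 5 tested genes of perivascular and border macrophages at 24 h, Mrc1, the mannose receptor gene, was lower and Cbr2 higher with LPS averaged over light. The others did not pass, and of all genes 3.1% were higher and 2.61% lower. Mrc1 stood at 0, 2.59, 1.3 and 1.35 FPKM in LPS+PBM and 1.31, 0, 2.73 and 2.71 FPKM in LPS cultures, against 6.50, 6.78, 5.45 and 10.4 FPKM in PBM and 22.6, 14.3, 15.4 and 21.4 FPKM in Control cultures (log2 difference -2.48 ± 0.42, SE; limma, adjusted p = 0.000719). Cbr2 averaged 45.3 ± 13.5 FPKM in LPS+PBM and 49.7 ± 16.1 FPKM in LPS, against 11.3 ± 6.15 FPKM in PBM and 17.6 ± 8.76 FPKM in Control cultures (SD, n = 4 each). Ms4a7 was above 0 in all 32 libraries, while Cd163, Lyve1 and Pf4 were listed at 0 in all 32. Plac8, a monocyte gene, was above 0 in all 4 LPS+PBM libraries of 24 h and in 1 of 4 PBM libraries (limma, adjusted p = 0.0486). It did not pass in LPS against Control or in the average over light. The 14 genes of its list together rested on 12 fragments in these LPS+PBM libraries and 1 in the PBM libraries. The highest Plac8 value of all 32 libraries, 48.6 FPKM, was in a Control library of 4 h.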
